A study of Mus musculus with 2 samples.

Results

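The 44 genes described here encode the machinery that copies DNA in S phase (20 genes, from Mcm2 to Uhrf1) and the machinery that prepares and carries out mitosis (24 genes, from Mki67 to Ckap2l). They were chosen by name, as rows of a count table of 31053 genes, of which 14202 had at least 20 counts. All 44 passed that minimum, with between 636 counts for Anln and 15109 for Dut. They were read in leukocytes of the aortic arch and thoracic aorta of Apoe-/- mice, a strain that lacks apolipoprotein E and develops arterial lesions. All mice received a western diet, and either saline or nt-LNA at 30 mg/kg, for 4 weeks. The tissue was dispersed and sorted for cells that carry the leukocyte antigen CD45 and lack the T cell antigen CD3, and droplet-based 3' RNA sequencing gave 1 library per treatment. The sources used here give neither the age and sex of the mice nor their number per library. The counts are unique molecular identifiers (UMIs), each standing for 1 captured RNA molecule, which the authors added up within 20 clusters of cells, both treatments together.

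A cell that is about to divide loads a ring of 6 MCM proteins onto DNA, opens the rings into moving helicases in S phase, and then builds a spindle that separates the copied chromosomes. Transcription of the S phase genes is driven by E2F factors as cells leave G1, whereas many genes of G2 and mitosis are switched on later through the CHR element and CCAAT boxes bound by the DREAM, MYB-MuvB and NF-Y complexes. Transcripts of both sets are scarce in resting leukocytes and abundant in dividing precursors such as thymocytes.

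The upstream sequences of the 2 sets differed in these motifs, which the choice of genes did not use. RefSeq windows of 300 bases (250 before the transcription start and 50 after it, build GRCm38.p6) were found for 38 of the 44 genes, 17 of S phase and 21 of G2 and mitosis. Of these genes, 3 had 2 windows, and a gene was counted if any of its windows held the motif. An E2F-type motif, taken as TTTCCCGC, TTTCGCGC, TTTGCCGC or TTTGGCGC on either strand, occurred in 7 of the 17 S phase genes (41.2%). Those were Mcm3, Mcm5, Mcm6, Mcm7, Cdc6, Hells and Uhrf1. Among the G2 and mitosis genes it occurred in 1 of 21 (4.76%), Cdk1, against 2.6% of all 27025 genes with a window. The CHR motif TTTGAA, on either strand, showed the opposite split. It occurred in 3 of 17 S phase genes (17.6%) and in 15 of 21 G2 and mitosis genes (71.4%), against 20.2% of all genes. CCAAT, on either strand, was present in 11 of 17 (64.7%) and 17 of 21 (81.0%), against 41.1% of all genes. CHR and CCAAT occurred together in 2 of 17 (11.8%) and 14 of 21 (66.7%), against 7.97% of all genes. No test was made of these shares, and a match of letters is not evidence of binding.

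The sequences below show where these motifs lie. The rule took the 3 genes of each set with the most counts. Of these, Dut and Pcna are not printed, because annotated untranslated or coding sequence covers most of their windows. Mcm6, Mcm5 and Cdk1 were added for their motifs after these had been seen. Each line gives the bases before the start, 5′ to 3′ on the gene's strand, ending before any annotated untranslated or coding base. Capitals mark E2F, CHR and CCAAT motifs on either strand.

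Mcm6 and Mcm5 encode subunits of the replicative helicase, and each window holds E2F motifs that overlap on opposite strands. The windows are chr1:128359706-128359955, minus strand, and chr8:75109259-75109508, plus strand. In Mcm6 the E2F motifs begin 110, 106 and 47 bases before the start, and in Mcm5 they begin 153 and 149 bases before it.

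Mcm6: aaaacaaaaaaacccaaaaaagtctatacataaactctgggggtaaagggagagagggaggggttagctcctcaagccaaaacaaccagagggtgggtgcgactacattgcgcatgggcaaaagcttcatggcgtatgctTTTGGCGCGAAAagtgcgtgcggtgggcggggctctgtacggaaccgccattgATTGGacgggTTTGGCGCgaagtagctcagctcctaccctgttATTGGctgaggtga
Mcm5: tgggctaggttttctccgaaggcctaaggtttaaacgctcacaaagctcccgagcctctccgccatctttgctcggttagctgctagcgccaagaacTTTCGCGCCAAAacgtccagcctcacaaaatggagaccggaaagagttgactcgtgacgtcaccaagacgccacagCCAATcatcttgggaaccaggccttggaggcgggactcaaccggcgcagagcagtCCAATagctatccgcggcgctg

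Slbp encodes the protein that binds the stem-loop of histone mRNAs. Its window (chr5:33652575-33652824, minus strand) held 3 CCAAT motifs and neither of the others.

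Slbp: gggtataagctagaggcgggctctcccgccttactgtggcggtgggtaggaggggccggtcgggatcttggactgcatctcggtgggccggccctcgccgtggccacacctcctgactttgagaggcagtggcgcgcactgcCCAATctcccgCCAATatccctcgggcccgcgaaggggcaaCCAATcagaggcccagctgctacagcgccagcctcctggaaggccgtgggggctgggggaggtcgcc

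Top2a encodes the topoisomerase that untangles copied chromosomes, Mki67 the surface protein of mitotic chromosomes used as the Ki-67 stain, and Ube2c the ubiquitin-conjugating enzyme of the anaphase-promoting complex. Their windows are chr11:99024190-99024439, minus strand; chr7:135716380-135716629, minus strand; and chr2:164769679-164769897, plus strand. Top2a and Mki67 each held 2 CHR motifs, and the CHR of Ube2c, 29 bases before the start, lies in the 31 bases not printed.

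Top2a: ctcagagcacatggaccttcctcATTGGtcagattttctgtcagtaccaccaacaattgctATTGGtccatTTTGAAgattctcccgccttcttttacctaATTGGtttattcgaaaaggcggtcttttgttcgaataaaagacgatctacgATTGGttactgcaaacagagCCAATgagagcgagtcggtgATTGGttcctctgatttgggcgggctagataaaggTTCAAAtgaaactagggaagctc
Mki67: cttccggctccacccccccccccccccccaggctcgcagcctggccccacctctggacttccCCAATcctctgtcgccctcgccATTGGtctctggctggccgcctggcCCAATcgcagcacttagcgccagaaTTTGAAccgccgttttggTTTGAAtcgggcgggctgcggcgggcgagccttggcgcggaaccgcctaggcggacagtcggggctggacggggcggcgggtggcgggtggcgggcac
Ube2c: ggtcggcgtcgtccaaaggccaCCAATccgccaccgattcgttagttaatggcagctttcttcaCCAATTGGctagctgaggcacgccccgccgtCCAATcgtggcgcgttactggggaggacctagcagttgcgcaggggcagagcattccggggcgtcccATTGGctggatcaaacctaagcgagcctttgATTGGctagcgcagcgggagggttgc

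Cdk1, the kinase that drives entry into mitosis, was the single gene of its set with an E2F motif, 131 bases before the start (chr10:69352939-69353162, minus strand). The same window held 2 CHR motifs, of which 1 lies in the 26 bases left out.

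Cdk1: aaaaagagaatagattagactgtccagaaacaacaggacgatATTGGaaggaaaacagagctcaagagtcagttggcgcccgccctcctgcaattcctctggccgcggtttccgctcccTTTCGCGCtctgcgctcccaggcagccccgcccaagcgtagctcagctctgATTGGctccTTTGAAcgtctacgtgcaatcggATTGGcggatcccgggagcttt

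The libraries held 2742 cells (saline) and 4871 cells (nt-LNA), with 70206506 UMIs in all and between 212515 and 12985745 per cluster. The libraries shared 2 cell barcodes, and none of the cells with these lay in the clusters described below. Because a cluster pools both libraries, it is 1 sample, and neither tests nor p-values were computed. The 95% intervals are exact and cover counting error only. The clusters were made from the expression values of all genes, so a gene that is high in a cluster describes that cluster. Within a cluster total, more cells with a transcript and more RNA per cell cannot be told apart.

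Both gene sets were most abundant in clusters 6 and 14. Levels are given as UMI counts scaled to 1000000 UMIs of the cluster (CPM), and sums run over the genes of a set. The S phase sum was 4380 CPM (4340 to 4420) in cluster 6, with 484 cells, and 3427 CPM (3298 to 3560) in cluster 14, with 198 cells. The G2 and mitosis sum was 6385 CPM (6337 to 6433) in cluster 6 and 8659 CPM (8454 to 8868) in cluster 14. In the other 16 clusters, leaving out also clusters 9 and 13, the S phase sum lay between 350 and 988 CPM with a median of 519. The G2 and mitosis sum there lay between 120 and 971 CPM with a median of 401. Neither range reached clusters 6 or 14. Cluster 6 led in S phase transcripts and cluster 14 in mitotic ones, and the intervals did not overlap. Together these 682 cells made up 8.96% of all cells and 16.3% of all UMIs, but 56.7% of S phase UMIs and 72.6% of G2 and mitosis UMIs. Cluster 6 alone, with 6.36% of cells, gave 53.6% and 66.1%.

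**Figure D1:**
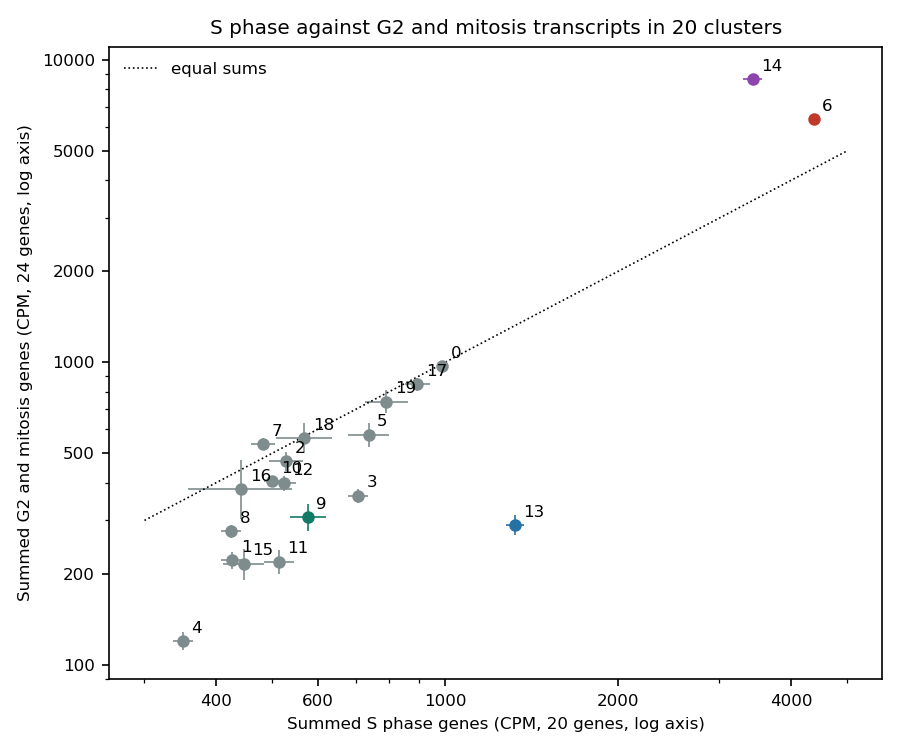
Summed CPM of the 20 S phase genes (horizontal) against that of the 24 G2 and mitosis genes (vertical) on log axes, 1 point per cluster with exact 95% counting intervals and a dotted line of equal sums. Clusters 6 and 14 lie far up and right, and cluster 13 lies to the right with 1323 CPM of S phase but 290 CPM of G2 and mitosis transcripts.

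In CPM, cluster 13 had the third highest S phase sum without a high mitotic one. Its 245 cells gave 1323 CPM of S phase transcripts (1275 to 1372), above the highest of the 16 other clusters (988 CPM in cluster 0). Its G2 and mitosis sum was 290 CPM (268 to 313), below the median of those clusters. Per cell this came to 11.8 S phase and 2.58 G2 and mitosis UMIs. On that scale the S phase sum was below those of clusters 19 (19.7), 17 (16.01), 0 (13.6) and 14 (13.5). Cluster 9, with 360 cells, had 578 CPM (536 to 622) and 307 CPM (277 to 339), both inside the range of the 16 others.

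The ratio of the G2 and mitosis sum to the S phase sum set the clusters apart. Such a ratio depends on how well each gene is captured, so it is compared between clusters only. It was 0.219 (0.201 to 0.239) in cluster 13, the lowest of 20, and 0.531 (0.468 to 0.602) in cluster 9. In cluster 6 it was 1.46 (1.44 to 1.48), and in cluster 14 it was 2.53 (2.42 to 2.64), the highest. The 16 other clusters ran from 0.342 in cluster 4 to 1.11 in cluster 7, with a median of 0.795. With each gene weighted equally the ratio was 0.171 in cluster 13, still the lowest, and 0.313 in cluster 4, the next. Cluster 14 then came to 1.56, against 1.40 in cluster 6. Across clusters the log2 sums of the 2 sets had a Pearson r of 0.90 (n = 20), of 0.59 without clusters 6 and 14, and of 0.84 when cluster 13 was also left out. These are descriptions, since the points share libraries and each cluster's total.

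All 44 genes had clusters 6 and 14 as their 2 highest. The highest was cluster 6 for 13 S phase genes and 13 G2 and mitosis genes, and cluster 14 for 7 and 11. To count genes, each CPM was divided by the mean CPM of the other 19 clusters, and a ratio above 2 was called higher, below 0.5 lower. In cluster 6 this made 20 of 20 S phase and 24 of 24 G2 and mitosis genes higher, where 8.32% of all genes were. In cluster 14 it made 19 of 20 and 24 of 24 higher, where 22.1% of all genes were. The exception was Rfc2, a subunit of the loader of the PCNA clamp, with a ratio of 1.59. The median log2 ratio was 2.46 for S phase and 3.11 for G2 and mitosis genes in cluster 6 (all genes -0.30), and 1.90 and 3.07 in cluster 14 (all genes 0.01).

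Counted as UMIs per cell, cluster 14 stood out less. A cell of cluster 6 had a mean of 22031 UMIs, with 96.5 of S phase and 141 of G2 and mitosis genes. A cell of cluster 14 had 3935 UMIs, with 13.5 and 34.1. On that scale 5 of 20 S phase and 13 of 24 G2 and mitosis genes were over 2-fold higher in cluster 14. Cluster 14 also had 11.2% mitochondrial UMIs, the highest of 20 clusters, and 9.14% ribosomal protein UMIs, the lowest, against 2.93% and 24.5% in cluster 6. What part RNA quality has in the levels of cluster 14 was not tested.

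**Figure D2:**
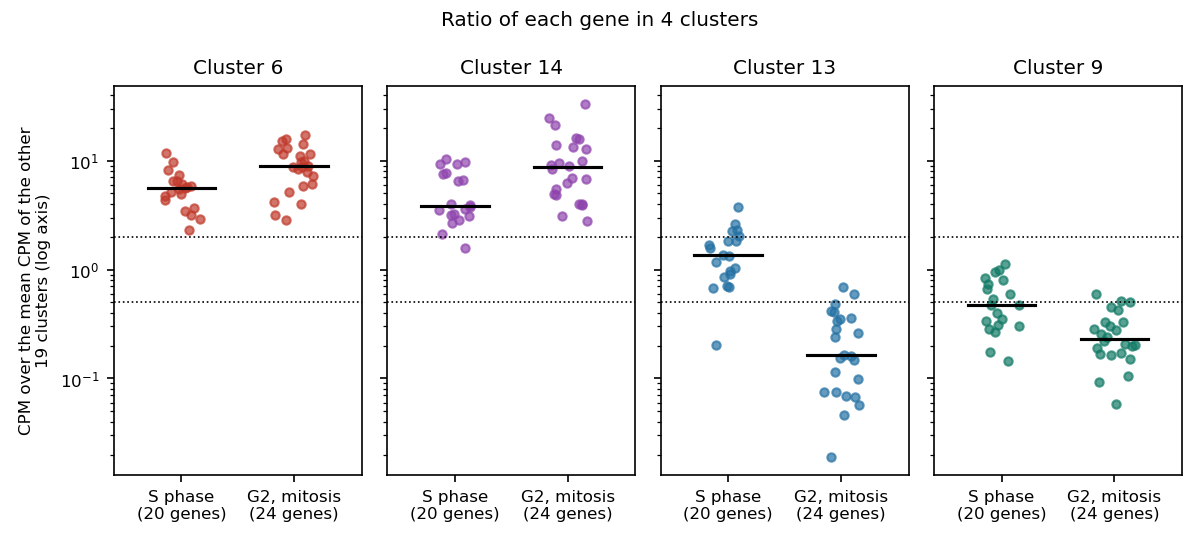
CPM of each gene over its mean in the other 19 clusters, on a log axis, for clusters 6, 14, 13 and 9, with 1 point per gene, the median as a bar, and dotted lines at 2 and 0.5. Points of both sets lie above 2 in clusters 6 and 14 except Rfc2 in cluster 14, whereas in cluster 13 the S phase genes other than Rrm2 lie between 0.670 and 3.73 and 22 of 24 G2 and mitosis genes lie below 0.5.

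Of the S phase sum of cluster 13, 466 CPM came from the 6 MCM helicase genes, 307 from the 4 enzymes of DNA precursors and 550 from the 10 other genes. Mcm7 was at 210 CPM in cluster 6, 163 in cluster 14, 114 (100 to 129) in cluster 13 and 39.3 in cluster 9. In the 16 other clusters Mcm7 ran from 9.41 to 50.9 CPM with a median of 22.8, so that cluster 13 lay above them all. Mcm6 was at 212, 148, 111 and 32.1 CPM in clusters 6, 14, 13 and 9, against 15.2 to 76.5 (median 33.0) in the others. Mcm2 was at 107, 70.6, 62.0 and 32.1 CPM, against 11.03 to 30.3 (median 16.2). Mcm7, Mcm6 and Mcm2 had ratios of 2.63, 2.24 and 2.32 in cluster 13, and Mcm3, Mcm4 and Mcm5 had 1.59, 1.82 and 1.36. Summed, the 6 subunits reached 997 CPM in cluster 6, 753 in cluster 14, 466 (438 to 496) in cluster 13, 167 in cluster 9, 271 in cluster 0 and 277 in cluster 17.

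The partners of the helicase were less uniform. Gins2, a subunit of the GINS complex that activates it, was at 59.5, 38.5, 20.2 and 3.21 CPM in clusters 6, 14, 13 and 9, against 0 to 22.9 (median 5.12) elsewhere. Cdc45, the other activating factor, was at 57.4, 68.0, 7.35 and 3.21 CPM, against 0 to 12.3 (median 3.51). Cdc6, which loads the rings before S phase, was at 52.7, 75.7, 7.35 and 3.21 CPM, against 0 to 11.9 (median 4.64). Cdc45 and Cdc6 in cluster 13 thus lay inside the range of the other clusters.

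Uhrf1 gave cluster 13 its highest ratio among the 44 genes. It encodes the protein that reads hemimethylated DNA behind the fork and brings in the maintenance methyltransferase. Uhrf1 was at 221 CPM in cluster 6, 219 in cluster 14, 142 (126 to 159) in cluster 13 and 20.8 in cluster 9. Elsewhere it ran from 3.52 to 40.4 CPM with a median of 13.3. The cluster 13 ratio was 3.73. Hells, a remodeller that also serves DNA methylation, was at 162, 236, 45.9 and 6.41 CPM, against 4.71 to 41.4 (median 12.3). Ung, which cuts uracil out of DNA, was at 33.9, 30.8, 23.0 and 8.01 CPM, against 3.05 to 27.6 (median 7.27).

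The enzymes that make DNA precursors went apart. Rrm2, the cell cycle-regulated subunit of ribonucleotide reductase, was at 401 CPM in cluster 6, 302 in cluster 14, 11.02 (7.06 to 16.4) in cluster 13 and 8.01 in cluster 9. Elsewhere Rrm2 ran from 0 to 62.6 CPM with a median of 14.9. Its ratio of 0.201 made it the single S phase gene that was over 2-fold lower in cluster 13. Rrm1, the large subunit, was at 202, 222, 41.8 and 13.6 CPM, against 15.3 to 42.4 (median 22.9). Tyms, thymidylate synthase, was at 290, 317, 33.5 and 17.6 CPM, against 6.16 to 42.9 (median 16.03). Dut, which keeps uracil out of DNA, was at 919, 275, 220 and 129 CPM, against 43.9 to 145 (median 59.5). Dut thus separated cluster 6 from cluster 14, and Rrm2 separated both from cluster 13.

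At the fork itself, Pcna, the sliding clamp, was at 438, 309, 110 and 80.1 CPM in clusters 6, 14, 13 and 9, against 49.4 to 133 (median 68.5) elsewhere. Fen1, which trims flaps between Okazaki fragments, was at 81.6, 173, 26.6 and 16.8 CPM, against 9.32 to 37.98 (median 16.8). Rfc2 was at 121, 86.0, 65.2 and 44.9 CPM, against 37.4 to 72.4 (median 48.0), with the smallest ratios of the set in clusters 6 and 14. Slbp was at 344, 321, 103 and 55.3 CPM, against 60.6 to 151 (median 86.0).

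In all, 5 of 20 S phase genes were over 2-fold higher in cluster 13 (Uhrf1, Mcm7, Mcm2, Mcm6 and Ung), where 11.0% of all genes were. Ung, at 2.05, was just inside and Mcm4 just outside. None of the 24 G2 and mitosis genes was higher, and 22 were over 2-fold lower, where 28.3% of all genes were. That was not particular to cluster 13, since 22 to 24 of them were lower also in clusters 1, 3, 4, 8, 11 and 15. These counts lean on the reference, because the mean of the other clusters includes clusters 6 and 14. Against the mean of the 16 clusters without 6, 9, 13 and 14, 11 of 20 S phase genes were over 2-fold higher (all genes 14.3%) and none was over 2-fold lower. On that reference 12 of 24 G2 and mitosis genes were lower and none was higher (all genes 28.0% lower). Cluster 13 lay above the median of the 16 for 19 of 20 S phase genes and below it for 22 of 24 G2 and mitosis genes. As UMIs per cell, or against all other clusters pooled, 1 of 20 S phase genes was over 2-fold higher.

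Cluster 9 had neither set raised. None of the 44 genes was over 2-fold higher there, where 13.3% of all genes were. Against the mean of the other 19 clusters 11 of 20 S phase and 21 of 24 G2 and mitosis genes were over 2-fold lower, where 30.1% of all genes were. That was not particular to cluster 9. From 21 to 24 G2 and mitosis genes were lower also in clusters 1, 3, 4, 8, 10, 11, 12, 13, 15 and 16. From 11 to 17 S phase genes were lower also in clusters 1, 2, 4, 7, 8, 10, 15 and 16. These counts lean on the reference, as those of cluster 13 do. Against the 16 clusters, 3 S phase and 8 G2 and mitosis genes were over 2-fold lower in cluster 9, where 29.6% of all genes were. For the S phase set that is below the share of all genes, and for the G2 and mitosis set it is near it.

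**Figure D3:**
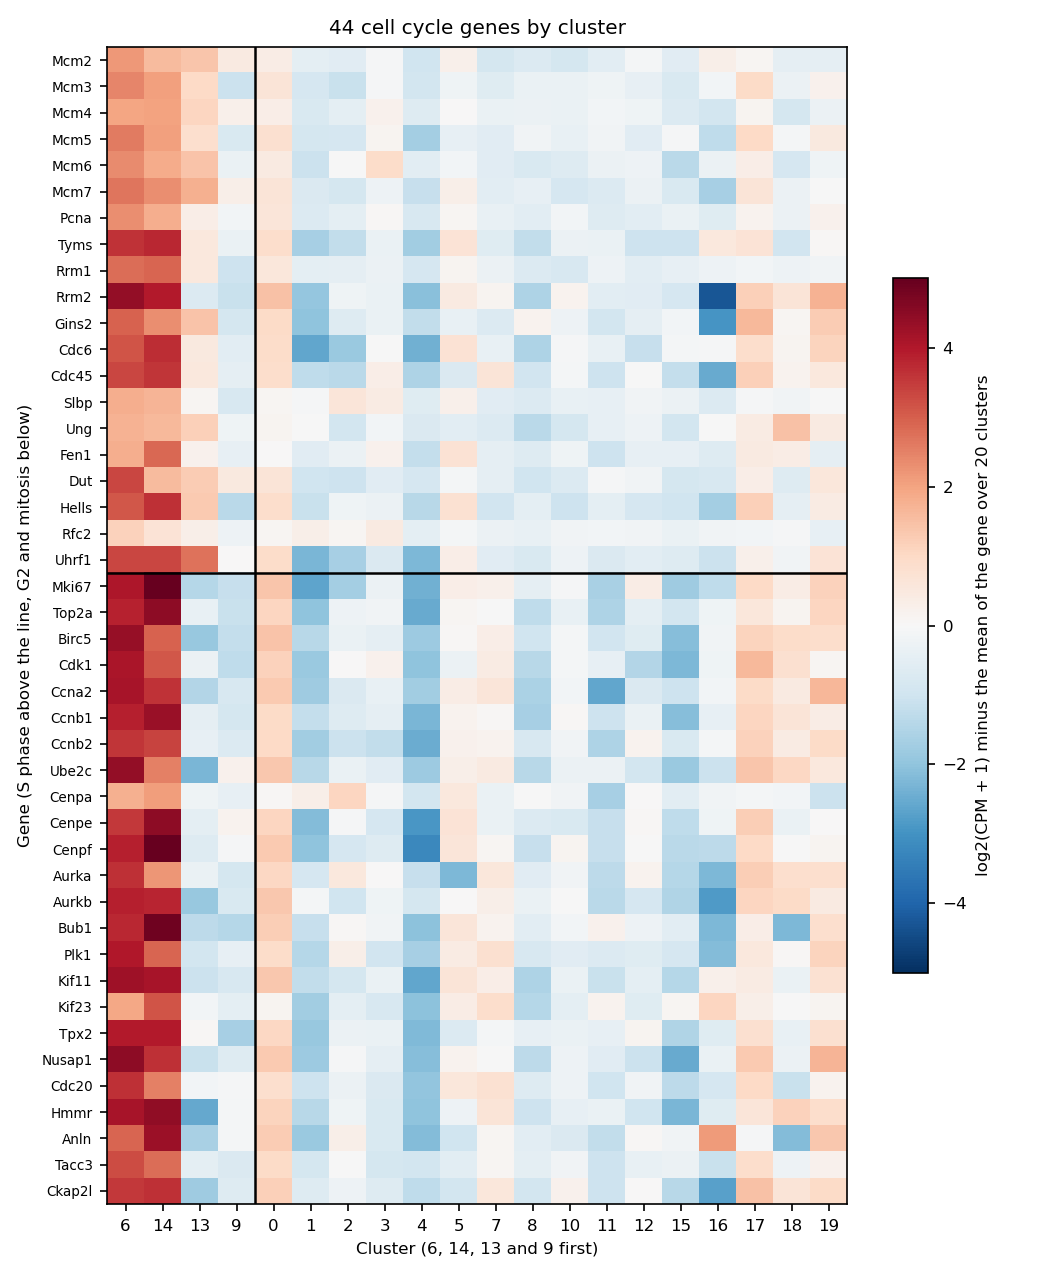
log2(CPM + 1) of each of the 44 genes minus its mean over 20 clusters, with clusters 6, 14, 13 and 9 first and a horizontal line between S phase genes (above) and G2 and mitosis genes (below). Red means above the gene's mean: clusters 6 and 14 are red in all rows, and cluster 13 is red for most rows above the line and white or blue below it.

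The kinase and cyclins that start mitosis were abundant in clusters 6 and 14 and scarce in clusters 13 and 9. Cdk1 was at 204 CPM in cluster 6, 104 in cluster 14, 8.72 in cluster 13 and 4.01 in cluster 9, against 1.52 to 36.3 (median 9.76) in the 16 others. Its partner Ccna2, cyclin A2, was at 202, 140, 3.21 and 5.61 CPM, against 0.907 to 35.7 (median 8.65). Ccnb1, cyclin B1, was at 112, 150, 4.59 and 3.21 CPM, against 0.573 to 15.1 (median 4.88). Ccnb2 was at 190, 163, 11.02 and 8.81 CPM, against 1.86 to 34.7 (median 13.6). For each of these 4, clusters 13 and 9 lay inside the range of the others, and cluster 17 or 19 was the highest of the 16.

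Of the mitotic kinases, Aurka, which acts at spindle poles, was at 59.0, 20.5, 2.75 and 1.603 CPM in clusters 6, 14, 13 and 9, against 0 to 10.1 (median 3.51). Aurkb, the kinase of the chromosomal passenger complex, was at 104, 100, 0.918 and 3.21 CPM, against 0 to 17.1 (median 5.40). Birc5, survivin of the same complex, was at 566, 212, 6.43 and 11.2 CPM, against 5.33 to 74.5 (median 22.2). For Aurkb the interval of the ratio of cluster 14 to cluster 6 (0.755 to 1.21) included 1, whereas for Birc5 (0.318 to 0.437) it did not. Plk1, a kinase of many mitotic steps, was at 72.1, 33.4, 1.38 and 2.40 CPM, against 0 to 8.94 (median 2.05). Bub1, of the spindle checkpoint, was at 63.7, 137, 0.918 and 0.801 CPM, against 0 to 10.1 (median 3.32). Its values in clusters 13 and 9 rest on 2 and 1 UMIs.

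Of the anaphase-promoting complex, Ube2c was at 665 CPM in cluster 6, 178 in cluster 14, 5.51 (2.85 to 9.62) in cluster 13 and 36.1 in cluster 9. The 16 other clusters ran from 7.62 to 80.5 CPM with a median of 24.4, and the interval of cluster 13 reached into that range. Cdc20, the activator of the complex, was at 125, 57.8, 8.26 and 8.81 CPM, against 1.58 to 19.01 (median 6.38).

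Chromosome and centromere genes were among those highest in cluster 14. Mki67 was at 2758 CPM in cluster 14, 783 in cluster 6, 16.99 in cluster 13 and 20.8 in cluster 9, against 6.81 to 123 (median 41.7). Top2a was at 1458, 959, 51.0 and 29.6 CPM in the same order, against 10.5 to 140 (median 55.4). Cenpf, a kinetochore protein, was at 991, 377, 15.1 and 23.2 CPM, against 1.72 to 62.1 (median 19.6). In cluster 13 these genes were between the extremes of the 16 others, as was Cenpe. That gene, a kinetochore motor, was at 384, 199, 11.5 and 18.4 CPM in clusters 14, 6, 13 and 9, against 1.29 to 39.7 (median 12.8). Cenpa, the histone H3 of centromeres, was at 404, 331, 81.3 and 70.5 CPM, against 29.0 to 198 (median 87.5).

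Spindle and cytokinesis genes completed the set. Kif11, the motor that pushes spindle poles apart, was at 239, 222, 5.05 and 6.41 CPM in clusters 6, 14, 13 and 9, against 1.15 to 31.5 (median 9.23). Nusap1, a microtubule-binding protein, was at 416, 240, 7.80 and 11.2 CPM, against 2.29 to 61.1 (median 14.4). Hmmr, another spindle protein, was at 149, 186, 0.459 and 7.21 CPM, against 0.762 to 18.4 (median 5.68). The cluster 13 value of Hmmr rests on 1 UMI. Kif23, a motor of the central spindle, was at 95.8, 223, 22.0 and 16.8 CPM, against 5.02 to 51.8 (median 24.9). Anln, a scaffold of the contractile ring, was at 32.6, 87.3, 0.459 and 3.21 CPM, against 0 to 18.8 (median 2.60), with 1 UMI in cluster 13. Tpx2, Tacc3 and Ckap2l, all spindle proteins, ran from 74.7 to 249 CPM in cluster 6 and from 82.2 to 243 in cluster 14.

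Between clusters 6 and 14 some of the 44 genes differed over 2-fold, no larger a share than of all genes. The CPM in cluster 14 was over 2-fold that in cluster 6 for Mki67 (3.52), Anln (2.67), Cenpf (2.63), Kif23 (2.33), Bub1 (2.16) and Fen1 (2.12), where 27.4% of 10895 genes were higher. It was below 0.5 of that in cluster 6 for Ube2c (0.268), Dut (0.299), Aurka (0.348), Birc5 (0.374), Cdc20 (0.461) and Plk1 (0.463), where 15.7% of genes were lower. So 6 of 44 genes were higher and 6 lower, 1 S phase and 5 mitotic genes in each direction. The counting interval of the ratio lay above 1 for 3 S phase and 10 mitotic genes and below 1 for 10 and 9. The median log2 ratio was -0.25 for S phase genes and -0.05 for mitotic genes, against 0.32 for all genes tested. Without Mki67 the G2 and mitosis sum was 5901 CPM in cluster 14 and 5602 in cluster 6, and without Mki67 and Cenpf it was 4910 and 5225, a choice made after the values were seen. None of the 44 genes had more UMIs per cell in cluster 14.

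The ratio of cluster 14 to cluster 6 was also set beside transcript length. The 6 higher genes had longest coding transcripts (GENCODE M21) of 2373 (Fen1) to 11130 bases (Cenpf), with a median of 4013. The 6 lower genes had 1793 (Cdc20) to 3334 bases (Birc5), with a median of 2070. Spearman's rho between length and the log2 ratio was 0.43 over the 44 genes, close to the 0.39 over 10110 other genes. It was 0.58 over the 24 mitotic and 0.16 over the 20 S phase genes. These correlations are across genes of the same 2 clusters, which are not independent replicates. What part length has in the ratios was not tested.

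**Figure D4:**
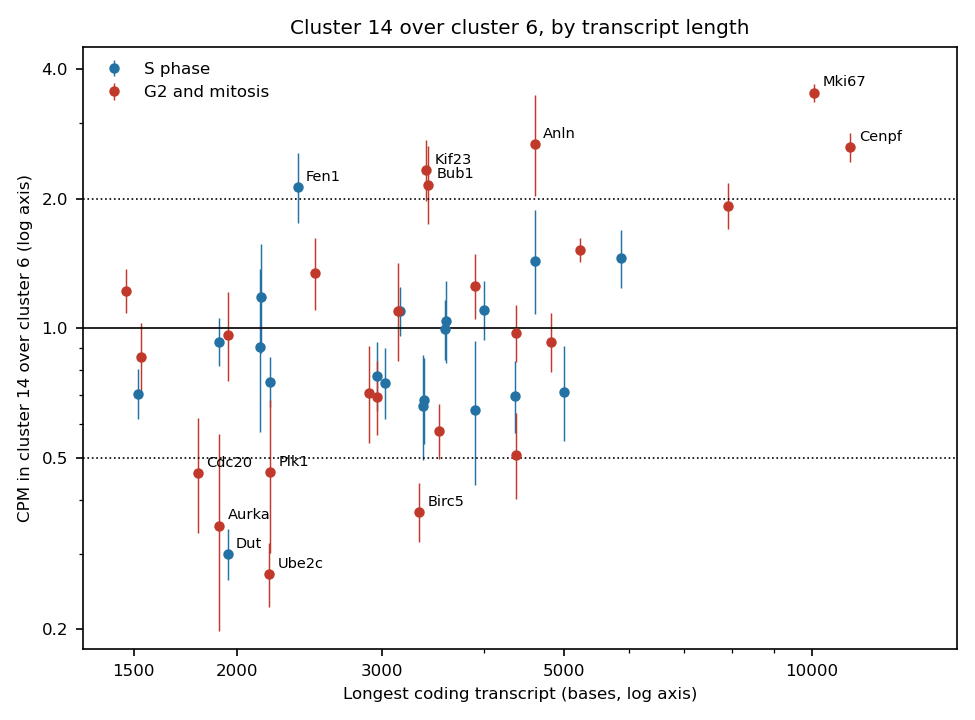
CPM in cluster 14 over cluster 6 for each gene against the length of its longest coding transcript, on log axes, with exact 95% counting intervals and lines at 0.5, 1 and 2. Genes past a line of 2 or 0.5 are named: those above 2 include the long Mki67 and Cenpf, and those below 0.5 are at most 3334 bases long.

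The deposited names are Macrophages for cluster 6 and T cells for clusters 9, 13 and 14. Cluster 6 did not stand out by the markers of its name: 12 macrophage markers summed to 1066 CPM there, against 75.7 to 37334 CPM (median 838) in the 16 others and 536, 124 and 400 in clusters 9, 13 and 14. None of the 12 was over 2-fold higher in cluster 6. Adgre1, which encodes F4/80, was at 9.28 CPM, near its median of 9.10 over 20 clusters. Apoe, the gene these mice lack, cannot serve as a marker here and was at 2.06 CPM (median 2.20). All others of the list were above their medians, such as Lyz2 (689 against 369 CPM) and Cd14 (57.7 against 23.1 CPM). In cluster 6 the 15 T lineage markers summed to 8983 CPM. The sums were 19685 in cluster 9, 11066 in cluster 13 and 19016 in cluster 14, and 673 to 18482 (median 2128) in the 16 others. Of the 15, 2 were over 2-fold higher in cluster 6, 14 in cluster 9, 6 in cluster 13 and 13 in cluster 14. For all genes the shares were 8.32%, 13.3%, 11.0% and 22.1%. Cd3e, part of the antigen the sort selected against, was at 304 CPM in cluster 6, 817 in cluster 9, 684 in cluster 13 and 1100 in cluster 14. The clusters are therefore called by number. The B cell markers summed to 1981, 765, 707 and 752 CPM in clusters 6, 9, 13 and 14, against 523 to 20476 (median 1893) in the 16 others. NK markers summed to 634, 178, 365 and 1183 CPM, against 10.4 to 16659 (median 129). Most of this was Gzma, a granzyme that T cells also express, at 569, 168, 363 and 1172 CPM. Neutrophil markers summed to 122, 179, 68.9 and 153 CPM, against 61.9 to 102472 (median 274). Erythroid markers summed to 52.0, 28.0, 20.7 and 30.8 CPM, against 9.21 to 340 (median 22.5). The globin gene Hbb-bt was highest of 20 in cluster 6, at 45.0 CPM, and made up most of the erythroid sum there. The other globin genes of the list were below their medians in cluster 6. Hba-a1 was at 2.44 CPM (median 4.40), Hba-a2 at 1.41 (2.53) and Hbb-bs at 3.19 (9.97). Ly6g of neutrophils and Alas2 of red cell precursors were at 0 in all 4, which was also their median over 20 clusters. Adgre1 and the NK gene Klrb1c were at 0 in cluster 13.

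Stage markers of T cell development differed between the 4 clusters. Rag1, a recombinase that cuts antigen receptor genes, was at 1657 CPM in cluster 9, 204 in cluster 6, 233 in cluster 13 and 339 in cluster 14. Cd8a was at 1195 CPM in cluster 9 and 1512 in cluster 14, 465 in cluster 6 and 11.9 in cluster 13. Cd4 was at 465 and 345 CPM in clusters 9 and 14 and at 67.9 and 3.67 in clusters 6 and 13. Cluster 13 was low in both coreceptors and highest of 20 in Ptcra (234 CPM), the pre-T cell receptor chain, in Notch1 (357 CPM) and in the gamma chain gene Tcrg-C1 (519 CPM). Its 6 gamma delta T markers summed to 1545 CPM, against 287, 63.3 and 463 in clusters 6, 9 and 14. Most of that sum came from the gamma chain genes Tcrg-C1, Tcrg-C2 (496 CPM) and Tcrg-C4 (270 CPM). The delta chain gene Trdc was at 254 CPM in cluster 13 and highest of 20 in cluster 14, at 395 CPM. What part the mix of such stages has in the gene levels was not tested.

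Further lists of the same machinery were counted in the same way, beside the same shares of all genes and with no test made. Of 41 other replication factors, 36 were over 2-fold higher in cluster 6, 28 in cluster 14, 2 in cluster 13 (Orc1 and Pole3) and 0 in cluster 9. Clspn, an adaptor of the fork checkpoint, was at 331 CPM in cluster 14, 188 in cluster 6, 9.64 in cluster 13 and 4.01 in cluster 9. Of 17 genes of nucleotide synthesis the counts were 14, 12, 6 and 1 in clusters 6, 14, 13 and 9, the 6 of cluster 13 being Dctpp1, Dtymk, Ctps, Impdh2, Paics and Shmt1. Of 17 genes of fork repair they were 16, 17, 0 and 1. Of 30 kinetochore and checkpoint genes they were 25, 28, 0 and 0, and of 37 spindle and cytokinesis genes 37, 36, 1 and 1. Aspm, a spindle pole protein with a long transcript, was at 244 CPM in cluster 14 and 69.5 in cluster 6, and 0 in cluster 9. Of 14 condensin and cohesin genes they were 12, 13, 1 and 1, with Smc4 the 1 gene in clusters 13 and 9. Of 18 mitotic ubiquitin genes and cyclin partners they were 12, 13, 0 and 0.

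G1 control and histone genes were counted next. Of 24 genes that control entry into S phase, 14 were over 2-fold higher in cluster 6, 13 in cluster 14, 5 in cluster 13 and 1 in cluster 9. The 5 of cluster 13 were Cdk4, Cdk6, E2f6, Tfdp1 and Mycn, of which Cdk4, E2f6 and Tfdp1 had higher ratios in cluster 6. Cdk6, a kinase of early G1, was at 1038 CPM in cluster 13, 14.4 times the mean of the others, against 276 in cluster 14, 150 in cluster 6 and 56.9 in cluster 9. The 1 gene of cluster 9 was Ccnd3, cyclin D3, at 808 CPM. Of 25 histone and chromatin assembly genes, 23 were higher in cluster 6, 17 in cluster 14, 10 in cluster 9 and 1 in cluster 13. The 10 of cluster 9 were Hmgb1, 5 linker histone genes, Hist1h2ae, Hist1h2ap (2041 CPM), Hist1h2bc and Hist2h2ac. Hist1h3c (0.801 CPM from 1 UMI, a ratio of 0.0868) was among the 2 that were over 2-fold lower in cluster 9. Histone genes are a multigene family, so reads may be split between copies. Of 15 CDK inhibitor and quiescence genes, 5 were over 2-fold higher in cluster 9, among them Cdkn1b (p27) at 437 CPM, and 5 were over 2-fold lower, among them Cdkn1a (p21) at 24.04 CPM. In clusters 6, 14 and 13, 2, 3 and 0 were higher, and 6, 5 and 6 were lower. Of all genes, 28.2%, 30.1% and 28.3% were lower in clusters 6, 14 and 13, and 30.1% in cluster 9. The counts of lower genes in clusters 14 and 9 are near these shares. Btg1 was among the lower ones in clusters 6, 14 and 13, with ratios of 0.323, 0.331 and 0.325, as was Klf2, with 0.376, 0.168 and 0.185. The genes named here for clusters 9 and 13 were chosen after their values were seen, except those in a list's fixed selection.

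Profiles most like the summed sets were sought over the 20 clusters on log2(CPM + 1), outside all lists, among genes with at least 100 counts. For the S phase sum these were Supt16 (Pearson r 0.95), Ccdc34 (0.94), Mms22l (0.93), Usp1 (0.92) and Lsm2 (0.91). For the G2 and mitosis sum they were Shcbp1 (0.94), C330027C09Rik (0.94), Pif1 (0.93), Pbk (0.92) and Pclaf (0.92). The points share libraries and clusters, so the values are a description.

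Numbers of cells in the 4 clusters could be split by treatment. Cluster 6 held 5.84% (4.99 to 6.78) of saline cells and 6.65% (5.97 to 7.39) of nt-LNA cells, a ratio of 1.14 with an interval of 0.940 to 1.39 that includes 1. For cluster 9 the shares were 4.41% and 4.91% and their ratio 1.11 (0.890 to 1.40). For cluster 13 they were 2.41% and 3.67%, 1.53 times as high under nt-LNA (1.15 to 2.06). For cluster 14 they were 1.31% and 3.33%, 2.53 times as high (1.76 to 3.74). The intervals of clusters 13 and 14 lay above 1. They cover counting error alone: with 1 library each, treatment, mice and library cannot be told apart. All 4 clusters added up to 13.97% under saline and 18.6% under nt-LNA, which is 1.33 times as high (1.18 to 1.501). Leaving clusters 2, 5, 14 and 16 out of both numerator and denominator gave 14.5% and 20.5%, a ratio of 1.41 (1.24 to 1.61). Cluster 9 was kept, although its 3467 UMIs per cell were fewer than the 3935 of cluster 14. The sort against CD3 can set these shares, and its part was not tested. Levels of the 44 genes by treatment are not analysed here, because the counts pool the libraries.

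**Figure D5:**
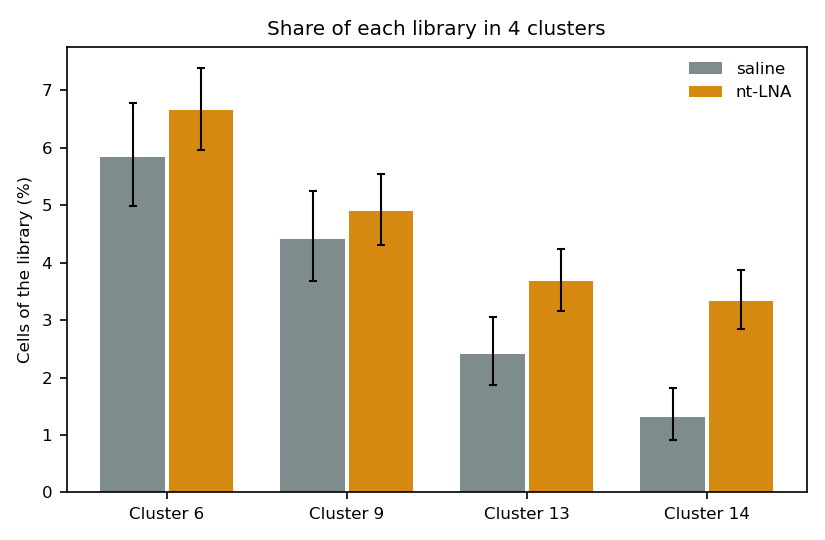
Percent of each library's cells in clusters 6, 9, 13 and 14, grey for saline and orange for nt-LNA, 1 library each, with exact 95% counting intervals. The bars overlap in their intervals for clusters 6 and 9 and are separate for clusters 13 and 14.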

How the data were processed

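Single-cell 3' RNA libraries of CD45+/CD3- cells (10x Chromium, Illumina NovaSeq) were read, per the labels' protocols, from 1 saline and 1 nt-LNA preparation. The submitters' processing notes name Cell Ranger 2.1.1, the build mm9 and Seurat. How cells were filtered and clustered, and whether doublets were removed, is not stated there or elsewhere in the sources. Deposited were whole-number UMI counts per gene, summed by the authors over the cells of each cluster with both libraries pooled. A deposited table gives the library and cluster number of each cell. Groups were taken from the labels.

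From these, CPM was computed as a gene's count over the total of its cluster. Ratios to the mean CPM of the other 19 clusters used genes with at least 20 counts, a 2-fold threshold and, for median log2 ratios, a pseudocount of 0.5 CPM. CPM carries exact Poisson, shares exact Clopper-Pearson, and ratios exact conditional 95% intervals, all for counting error only. No test was made. The calculation was tested on simulated data. Promoter windows came from RefSeq (GRCm38.p6) and transcript lengths from GENCODE M21, both of another build than mm9, so genes were matched by symbol and no coordinates of the counts are used. Named were all 44 genes, a fixed selection from 10 further lists (2 genes by count, 2 by ratio in cluster 6 and 2 in cluster 14) and 11 marker lists, with exceptions stated. The genes and lists were chosen with earlier results of these data known. Alternatives tried were UMIs per cell, other totals, other references, no filter, a 3-fold threshold and other weights of genes. Calculations used Python 3.11.15 with pandas 2.3.3 and numpy 2.4.6, intervals scipy 1.17.1, and plots matplotlib 3.10.9.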

Additional observations from a re-analysis of the deposited data

How the results depend on the processing

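Of 70 alternative values, 55 stayed within 1.5 times a count or within the interval of a ratio, and 15 moved. Among the 55 are 8 counts without the filter, which could not move. The ratio of the G2 and mitosis sum to the S phase sum, without the gene with the most counts in each set, was 1.57 in cluster 6, 0.618 in cluster 9 and 2.28 in cluster 14. As a ratio of geometric means it was 1.38 in cluster 6, 0.165 in cluster 13 and 1.55 in cluster 14, and with equal weights 1.40, 0.171 and 1.56. The order of clusters 13, 6 and 14 was the same in these. The count of 5 S phase genes higher in cluster 13 was 1 as UMIs per cell, 1 against the other clusters pooled, 1 at 3-fold and 11 against the mean without clusters 6, 9, 13 and 14. In cluster 14, UMIs per cell gave 5 S phase and 13 G2 and mitosis genes in place of 19 and 24. No count moved with a total free of mitochondrial, ribosomal protein and Malat1 UMIs. The same held, added after seeing the data, with a reference without clusters 2, 5, 14 and 16. Without the filter no count could move, since all 44 genes passed it. No paired analysis was possible because there is 1 library per treatment. Hmmr and Anln in cluster 13 and Bub1 in cluster 9 rest on 1 UMI each, so their levels there are not measurable at this depth. Aurka in cluster 9, and Aurkb and Bub1 in cluster 13, rest on 2 UMIs each. Plk1 rests on 3 UMIs in each of clusters 9 and 13.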
